A study of Homo sapiens with 6 samples.

Results

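The NRF2 antioxidant response was examined through 10 genes chosen by name, of which 6 had values among the 10542 genes listed in the deposited expression table: NFE2L2, KEAP1, HMOX1, GCLC, GCLM and TXNRD1. The other 4, NQO1, SRXN1, TXN and PRDX1, were not analysed here. DU145, a human line of prostate cancer origin in wide laboratory use, was given either a lentivirus that overexpresses the transcription factor TFEB (DU145-TFEB) or a blank vector lentivirus (DU145-vector), so the controls also carried a virus. Polyadenylated RNA from 3 libraries of each group was sequenced. Both groups were transduced, puromycin-selected lines, and nothing in the labels says that the 3 libraries came from separate cultures, so p-values measure only the spread between these libraries.

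NRF2, the protein product of NFE2L2, is the main transcription factor that switches on antioxidant and detoxifying genes. In unstressed cells KEAP1 holds NRF2 and passes it to a CUL3 ubiquitin ligase for degradation. Oxidants and electrophiles modify cysteines of KEAP1, whereupon NRF2 accumulates, pairs with a small MAF protein and binds the antioxidant response element of its target genes, where BACH1 can compete as a repressor. The targets make and recycle glutathione (GCLC, GCLM), keep thioredoxin reduced (TXNRD1) and break down haem (HMOX1). These are regulatory steps on protein as well as on mRNA, and only mRNA was measured here.

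TFEB itself was 6325, 6301 and 6036 normalized counts in DU145-TFEB against 127.4, 123.9 and 125.0 in DU145-vector, a 49.6-fold difference that matched the labels. A normalized count is the number of reads on a gene divided by 1 size factor for its library. The libraries held 13999961 to 16511477 reads on the listed genes, and every NRF2 pathway gene had at least 415 reads in every library. KRT8 and KRT18, keratins of epithelial cells, averaged 16978 and 6385 normalized counts in DU145-TFEB against 26868 and 10842 in DU145-vector. Of the chosen markers of fibroblasts, leukocytes and endothelial cells, 0 had values, so these were not analysed here. The table lists only genes with a deposited adjusted p-value below 0.05, so every listed gene had already been selected on the same comparison.

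The mRNA of the factor and that of its inhibitor moved in opposite directions. NFE2L2 was 3.11-fold lower in DU145-TFEB while KEAP1 was 2.01-fold higher. The glutamate-cysteine ligase subunits GCLC and GCLM and the thioredoxin reductase TXNRD1 fell, and the haem oxygenase HMOX1 rose. In limma's test, 2 of the 6 genes were higher and 4 were lower at an adjusted p below 0.05, beside 47.6% higher and 52.4% lower among all 10542 listed genes. The groups did not overlap for any of the 6 genes, as for 99.3% of the listed genes. Once the general trend against GC content and length was removed, KEAP1, GCLC, HMOX1 and GCLM all lost their calls. The sign changed for HMOX1 and GCLM, with intervals that include 0, while NFE2L2 and TXNRD1 stayed lower.

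**Figure D1:**
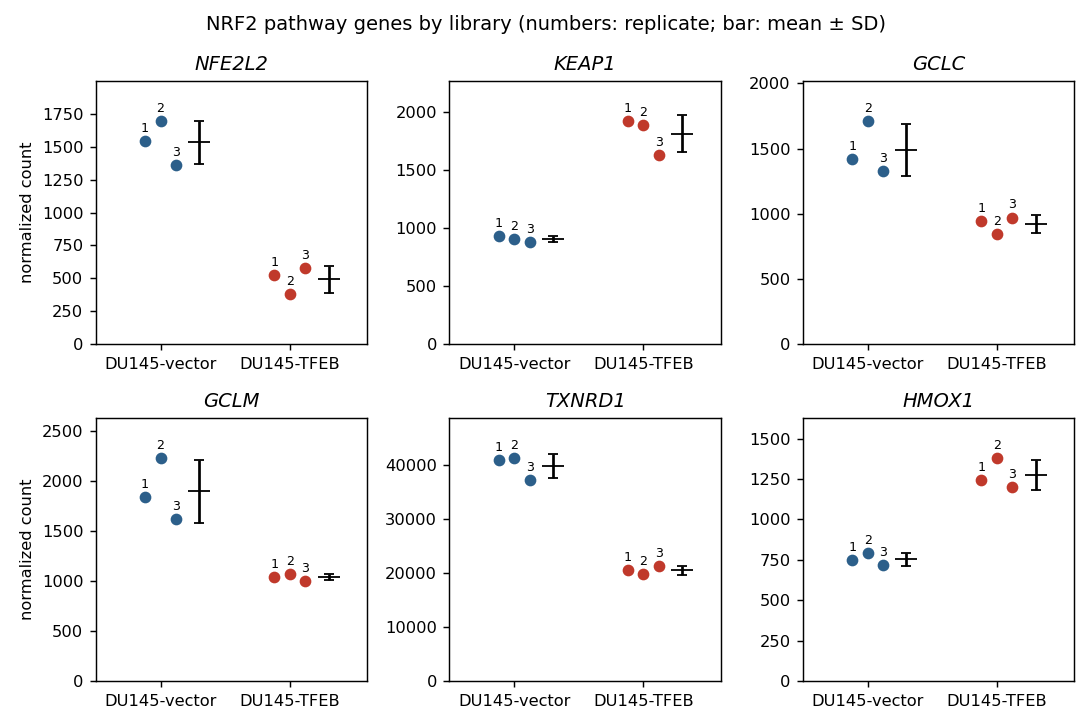
Normalized counts (vertical axis, from 0) of the 6 NRF2 pathway genes in each of 3 DU145-vector libraries (blue) and 3 DU145-TFEB libraries (red), numbered by replicate, with the mean ± SD in black beside the points. NFE2L2, GCLC, GCLM and TXNRD1 lie lower in every DU145-TFEB library than in any DU145-vector library, and KEAP1 and HMOX1 lie higher.

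NFE2L2 (ENSG00000116044, chromosome 2, 177227595 to 177392697 in GRCh38, minus strand) encodes NRF2. Its normalized counts were 524, 378 and 578 with TFEB overexpressed and 1542, 1694 and 1362 with the vector alone. The highest DU145-TFEB library thus lay far below the lowest DU145-vector library. The means were 493 ± 104 and 1533 ± 166 (SD, n = 3), 3.11-fold higher in DU145-vector. The log2 fold change was -1.65 (SE 0.154, 95% confidence interval -2.0 to -1.30, limma adjusted p = 1.18e-05). NFE2L2 was the 1 gene of the 6 below the cutoff of 1.5 on the log2 scale, which 16.5% of the listed genes passed in the lower direction. DU145-TFEB replicate 2 was the lowest library and without it the log2 fold change was -1.47. The cutoff was also missed under median-of-ratios (-1.41), upper-quartile (-1.47) and quantile scaling (-1.34), in DESeq2 (-1.40) and after trend removal, with NFE2L2 called lower in each.

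Part of the NFE2L2 locus is shared with other genes. AC019080.1, annotated as sense-overlapping on the same strand, shares 1054 exonic bases with NFE2L2 and averaged 32.7 normalized counts with TFEB overexpressed and 54.8 without. AGPS, an enzyme gene of ether lipid synthesis on the opposite strand, shares 54 exonic bases and averaged 675 and 1559. Whether the counting used strand was not stated, so reads on these shared bases cannot be told apart.

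KEAP1 (ENSG00000079999, chromosome 19, 10486120 to 10503741, minus strand), the adaptor that marks NRF2 for degradation, was at 1917, 1885 and 1630 normalized counts with TFEB overexpressed and at 928, 903 and 876 in DU145-vector. The DU145-vector libraries were close together, and each DU145-TFEB library was well above all of them. The means of 1811 ± 157 and 902 ± 26.1 (SD, n = 3) differed 2.01-fold, a log2 fold change of 1.00 (SE 0.0851, limma adjusted p = 7.46e-06).

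Per kilobase of gene length, KEAP1 and NFE2L2 had nearly the same level in the control cells, 240 and 256 normalized counts per kilobase. In DU145-TFEB the level per kilobase was 481 for KEAP1 and 82.5 for NFE2L2. Within each library, the ratio of KEAP1 to NFE2L2 per kilobase was 5.82, 7.94 and 4.48 in DU145-TFEB against 0.957, 0.847 and 1.02 in DU145-vector. Every DU145-TFEB library was above every control library in this ratio, which does not depend on the size factors, although the 2 transcripts differ in GC content (60.3% and 45.6%). The mean ratio was 6.08 ± 1.74 against 0.942 ± 0.088, a 6.45-fold difference. With the GC and length trend removed from each library, a step added to the ratio after seeing the data, the groups still did not overlap and differed 2.70-fold. For the ratio per kilobase, the exact two-sided permutation test gave p = 0.1, the smallest value that 3 against 3 libraries allow.

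GCLC (ENSG00000001084, chromosome 6, 53497341 to 53616970, minus strand) is the catalytic subunit of glutamate-cysteine ligase, the rate-limiting enzyme of glutathione synthesis. Its values were 945, 845 and 972 normalized counts with TFEB and 1423, 1711 and 1329 in DU145-vector. The means were 921 ± 66.7 and 1488 ± 199 (SD, n = 3), a log2 fold change of -0.69 (SE 0.107, limma adjusted p = 2.35e-04). The groups were apart, with DU145-vector replicate 2 the highest library. GCLC shares 529 exonic bases with AL033397.1 on the same strand.

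GCLM (ENSG00000023909, chromosome 1, 93885205 to 93909456, minus strand) is the modifier subunit of the same enzyme. It measured 1042, 1071 and 1004 normalized counts with TFEB and 1836, 2232 and 1620 in DU145-vector. The DU145-TFEB libraries were tightly grouped, and the control libraries were higher and more spread, again with replicate 2 on top. The means were 1039 ± 33.5 and 1896 ± 311 (SD, n = 3), a log2 fold change of -0.86 (SE 0.112, limma adjusted p = 7.98e-05). The ratio of GCLC to GCLM per kilobase was 0.557 ± 0.057 in DU145-TFEB and 0.494 ± 0.018 in DU145-vector, with an exact permutation p of 0.2, so a shift between the subunits was not shown.

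TXNRD1 (ENSG00000198431, chromosome 12, 104215779 to 104350305, plus strand) encodes the cytosolic thioredoxin reductase, a selenoprotein that passes electrons from NADPH to thioredoxin. It had the highest level per kilobase of the 6 genes in both groups, 3059 in DU145-TFEB and 5939 in DU145-vector. The libraries held 20489, 19734 and 21339 normalized counts with TFEB and 40964, 41337 and 37223 in DU145-vector. All control libraries lay well above all DU145-TFEB libraries. The means of 20521 ± 803 and 39841 ± 2275 (SD, n = 3) differed 1.94-fold, a log2 fold change of -0.96 (SE 0.0709, limma adjusted p = 4.67e-06).

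HMOX1 (ENSG00000100292, chromosome 22, 35380361 to 35394214, plus strand) encodes the inducible haem oxygenase, which opens haem into biliverdin, iron and carbon monoxide, and which BACH1 represses. Its values were 1245, 1380 and 1201 normalized counts with TFEB and 747, 792 and 716 in DU145-vector. All DU145-TFEB libraries were above the controls. The means of 1276 ± 93.4 and 752 ± 38.2 (SD, n = 3) differed 1.70-fold, a log2 fold change of 0.76 (SE 0.0864, limma adjusted p = 3.33e-05). HMOX1 thus moved opposite to GCLC, GCLM and TXNRD1 at the authors' scaling. In bulk RNA, fewer cells with a transcript and less of it per cell cannot be told apart.

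**Figure D2:**
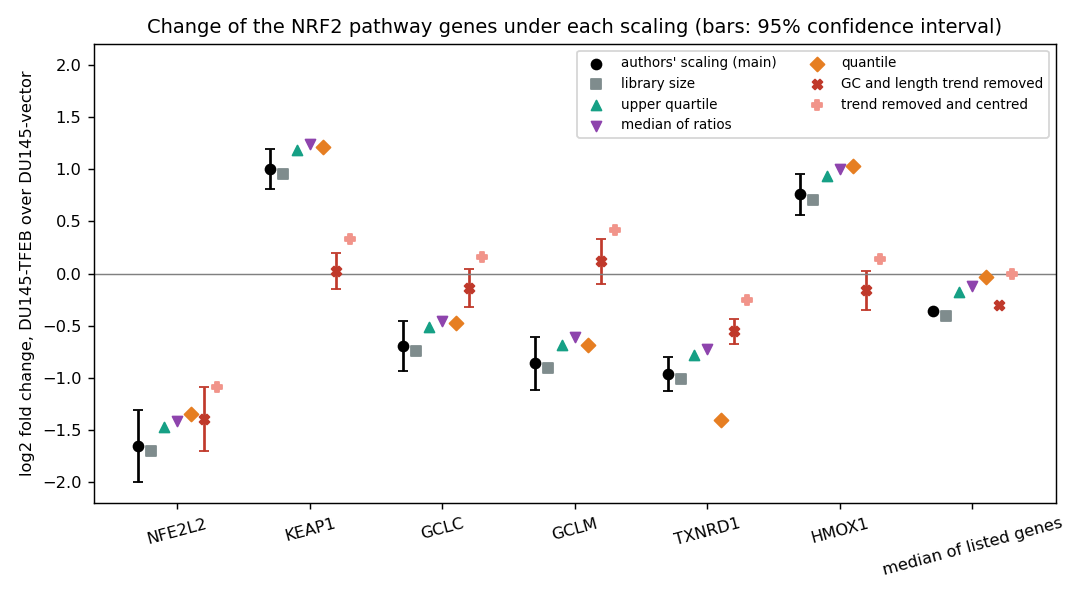
Log2 fold change of DU145-TFEB over DU145-vector (vertical axis) of the 6 NRF2 pathway genes, and the median of all listed genes, under the authors' scaling (black), 4 other scalings, and removal of the GC and length trend without and with centring; bars are 95% confidence intervals for the black and dark red points. NFE2L2 and TXNRD1 stay below 0 throughout, whereas KEAP1 drops from 1.00 to 0.03 and GCLM crosses from -0.86 to 0.12 when the trend is removed.

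Across the listed genes, the change followed the GC content of the transcript. With the genes cut into 5 groups of rising GC content, the median log2 fold change was -1.38, -1.10, -0.46, 0.54 and 0.66. GCLM (37.3% GC) lay in group 1, GCLC (44.3%) in group 2, NFE2L2 (45.6%) and TXNRD1 (44.8%) in group 3, HMOX1 (58.1%) in group 4 and KEAP1 (60.3%) in group 5. The 2 genes that rose were therefore those richest in GC, and the fall of GCLM and GCLC was smaller than the median of their groups. NFE2L2 and TXNRD1 lay below the median of theirs.

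**Figure D3:**
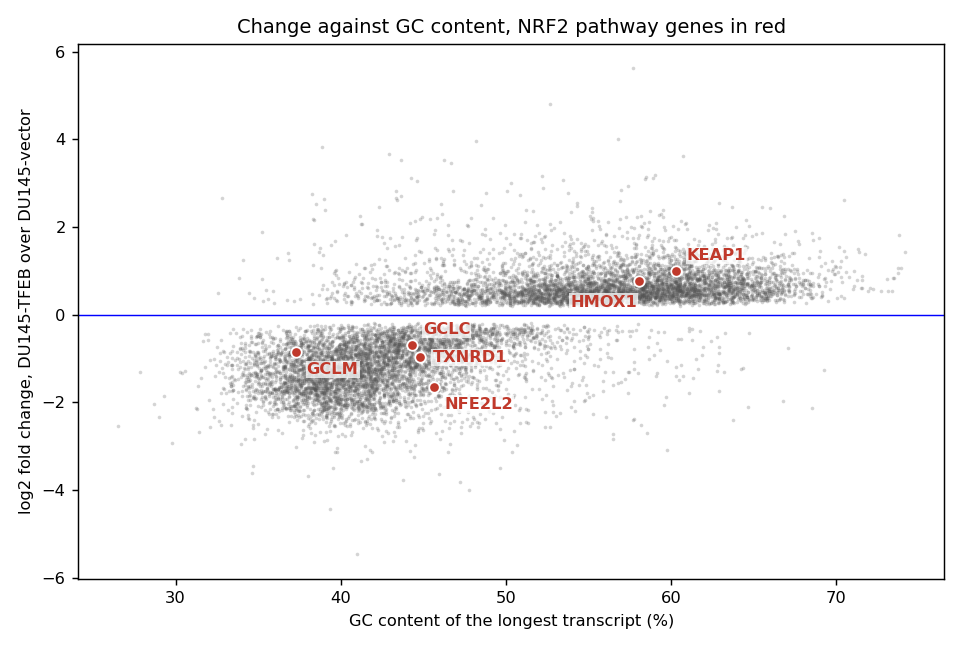
GC content of the longest transcript in percent (horizontal axis) against the log2 fold change of DU145-TFEB over DU145-vector (vertical axis), with each listed gene in grey and the 6 NRF2 pathway genes in red. Genes low in GC lie mostly below 0 and genes high in GC mostly above it; the band near 0 is empty in a table of genes selected by p-value, and KEAP1 and HMOX1 sit on the GC-rich side.

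When the trend against GC content and length was taken out of each library and the genes were tested again, NFE2L2 had a log2 fold change of -1.39 (limma adjusted p = 6.56e-06) and TXNRD1 of -0.55 (adjusted p = 5.44e-06). KEAP1 was then at 0.03 (95% confidence interval -0.14 to 0.20, limma adjusted p = 0.772) and HMOX1 at -0.16 (interval -0.34 to 0.03, adjusted p = 0.116). GCLC was at -0.14 (interval -0.32 to 0.04, limma adjusted p = 0.149) and GCLM at 0.12 (interval -0.09 to 0.34, adjusted p = 0.278). In this fit 0 of the 6 genes were higher and 2 were lower, where 15.6% of genes were higher and 53.7% lower. The median of all genes stayed at -0.30, and after centring it to 0, a step chosen after seeing the data, NFE2L2 was at -1.09, TXNRD1 at -0.25, KEAP1 at 0.33, GCLM at 0.42, GCLC at 0.16 and HMOX1 at 0.14. The first 2 were then lower and KEAP1 and GCLM higher in limma's test, against 32.0% of genes higher and 31.1% lower. The GC trend coincides with the groups, so whether it came from library preparation or from the cells cannot be told apart.

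The promoters of the genes were searched for the core of the antioxidant response element, TGACNNNGC on either strand, in the 250 bases before each annotated start. RefSeq (GRCh38.p14) promoters were used for 5 of the 6 genes, and HMOX1 had no entry. The matches are shown because they are the letters that NRF2 with a small MAF protein is known to bind, each with its 10 flanking bases, read on the strand that holds the core, with the 9 bases of the core in capitals.
KEAP1, second start, chr19:10502807-10502835, minus strand: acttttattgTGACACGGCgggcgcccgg
KEAP1, second start, chr19:10502784-10502812, plus strand: caggtcaccaTGACTAAGCagagccgggc
GCLM, chr1:93909446-93909474, plus strand: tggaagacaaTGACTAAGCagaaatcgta
TXNRD1, first start, chr12:104215670-104215698, plus strand: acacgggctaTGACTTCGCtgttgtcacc
TXNRD1, second start, chr12:104286920-104286948, minus strand: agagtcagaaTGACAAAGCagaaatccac

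The element thus appeared near a start of KEAP1, which was higher in DU145-TFEB at the authors' scaling and not called after trend removal, and near starts of GCLM and TXNRD1, which were lower at that scaling (GCLM at 0.12 after trend removal). The GCLM and second KEAP1 windows hold the same 9 letters. The GCLC window and both NFE2L2 windows held 0 matches, which says only that these letters are not in those 250 bases. The core occurred in 10.91% of 35116 promoters and in 11.79% of the 11157 promoters of listed genes. The palindrome CACGTG, the centre of the CLEAR motif that TFEB binds, was in 0 of the windows of these 5 genes, against 6.345% of all promoters and 8.183% of those of listed genes.

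Around these genes, 106 others of the antioxidant system were followed in 7 lists, of which 70 had values. At the authors' scaling 48 were higher and 22 lower, where 47.6% of all genes were higher and 52.4% lower. The median log2 fold change of the 70 was 0.52 beside -0.36 for all listed genes. With the trend removed, 20 were higher, 26 lower and 24 not called, where 15.6% of all genes were higher and 53.7% lower, and the median was -0.04 beside -0.30. After centring, 40 were higher and 11 lower, where 32.0% of all genes were higher and 31.1% lower. The counts thus moved with the centring, for these genes as for all genes. At the authors' scaling 3 higher and 3 lower genes passed the cutoff of 1.5, against 268 higher and 1741 lower of the 10542 listed genes. In the lists that follow, each count of higher and lower genes is to be set beside these shares of all genes. Values after trend removal without centring form the second of each pair that follows, and all log2 fold changes are DU145-TFEB over DU145-vector.

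Among the regulators of the pathway, 6 of 11 genes with values were higher and 5 lower, where 47.6% of all genes were higher and 52.4% lower. With the trend removed 0 were higher and 7 lower, where 15.6% of all genes were higher and 53.7% lower. After centring 2 were higher and 3 lower, beside 32.0% and 31.1% of all genes. BACH1, the repressor that competes with NRF2, was 284, 155 and 308 normalized counts with TFEB and 860, 1040 and 768 in DU145-vector. Its groups were well apart, and its log2 fold change of -1.88 became -0.86 after trend removal, lower in both. GSK3B, a kinase that marks NRF2 for KEAP1-independent degradation, fell likewise (-1.44 and -0.69). CUL3, the scaffold of the ligase that KEAP1 serves, was at -1.11 and -0.04, the second not called. The small MAF partner MAFG was at 0.84 and 0.01. MAFK, another small MAF, was at 0.81 and turned to -0.25, and the NRF2 relative NFE2L1 was at 0.69 and -0.01.

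Of the glutathione genes, 17 of 21 were higher and 4 lower, and 9 were higher and 8 lower after trend removal (12 and 5 after centring). Shares of all genes were 47.6% higher and 52.4% lower, 15.6% and 53.7% after trend removal, and 32.0% and 31.1% after centring. The largest fall of the list was that of SLC7A11, the cystine importer that supplies cysteine for glutathione. It held 382, 298 and 502 normalized counts in DU145-TFEB against 2251, 3219 and 2305 in DU145-vector. The groups were far apart, 6.58-fold higher in DU145-vector, with log2 fold changes of -2.73 and -1.49. The peroxidase GPX8 of the endoplasmic reticulum fell as well (-1.45 and -0.83). In the other direction, GPX4, the peroxidase of membrane lipids, was at 0.98 and -0.12, the second not called. It was called higher again after centring (0.18). The paper reports GPX4 mRNA as significantly increased in DU145-TFEB by quantitative PCR. GGT1, which breaks down extracellular glutathione, was at 0.77 and -0.24, the second not called. GSTM1, a glutathione transferase with near-identical paralogs whose reads are hard to divide, rose from 10.8, 7.8 and 4 to 55.8, 54.6 and 50.9 normalized counts (2.77 and 2.09), with as few as 4 reads in a library.

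In the thioredoxin, peroxiredoxin and glutaredoxin list, 7 of 12 genes were higher and 5 lower, and 4 and 4 with the trend removed (7 and 1 after centring). Beside these stand 47.6% and 52.4% of all genes, 15.6% and 53.7% with the trend removed, and 32.0% and 31.1% after centring. MSRB2, which repairs oxidized methionine in mitochondria, rose most, from 340 ± 14.7 to 1333 ± 150 normalized counts (1.96 and 1.65). The peroxiredoxins PRDX2 (0.97 and 0.11) and PRDX5 (0.92 and -0.01) were higher at the authors' scaling and, at 0.41 and 0.29, after centring, but not with the trend removed alone. The mitochondrial PRDX3 fell (-0.63 and -0.25), although it was at 0.05 after centring. SESN3, a sestrin of the stress response, was at -1.45 and -0.30, called lower in both, and at -0.00373 after centring (limma adjusted p = 0.976). SESN1 was at -0.59 and -0.12, its call lost under 2 other settings as well.

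The enzymes that regenerate NADPH, which both glutathione reductase and TXNRD1 consume, split into 5 higher and 3 lower of 8. After trend removal 1 was higher and 2 lower (6 and 1 after centring). Shares of all genes were 47.6% higher and 52.4% lower, 15.6% and 53.7% after trend removal, and 32.0% and 31.1% after centring. TKT, the transketolase of the pentose phosphate pathway, rose in both fits (0.76 and 0.34). PGLS of the same pathway was at 0.99 and -0.05, and the mitochondrial IDH2 at 0.84 and 0.04. The malic enzyme ME1 was at -0.82 and -0.13, MTHFD2 at -0.65 and 0.00369, and the cytosolic IDH1 at -0.41 and 0.06, its first call lost in DESeq2. ME1, MTHFD2 and IDH1 were called lower at the authors' scaling only, and were called higher after centring (0.17, 0.30 and 0.36).

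Of the quinone, carbonyl and conjugation enzymes, 6 of 9 were higher and 3 lower, and 3 and 2 after trend removal (7 and 1 after centring). Beside these stand 47.6% and 52.4% of all genes, 15.6% and 53.7% after trend removal, and 32.0% and 31.1% after centring. UGDH, which makes the sugar donor of glucuronidation, fell from 2815 ± 223 to 1112 ± 57.0 normalized counts (-1.34 and -0.70). The epoxide hydrolase EPHX1 (0.93 and 0.09) and the aldo-keto reductases AKR1A1 (0.84 and 0.00172) and AKR1B1 (0.60 and -0.03) lost their calls with the trend removed, and were again called higher after centring (0.39, 0.30 and 0.27). AKR1C3, another aldo-keto reductase, was at -1.03 and -0.39, the second not called. CBR4, a mitochondrial reductase, turned from -0.48 to 0.59, called in both directions, and its first call was lost under 4 other settings.

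All 5 genes with values of the haem and iron list were higher, where 47.6% of all listed genes were. After trend removal 3 remained higher and 0 were lower, where 15.6% of all genes were higher and 53.7% lower. After centring 5 were higher and 0 lower, beside 32.0% and 31.1% of all genes. BLVRB, a biliverdin reductase, held 4897, 5501 and 4464 normalized counts in DU145-TFEB against 2154, 2012 and 2122 in DU145-vector. The groups were apart by more than their spread (1.24 and 0.34). FTL, the light chain of the iron store ferritin, rose from 5483 ± 628 to 10656 ± 382 (0.96 and 0.35), and the haem transporter SLC48A1 was at 0.80 and -0.06. HMOX1 itself was at 0.76 and -0.16, the second not called.

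Of the 4 enzymes of superoxide and hydrogen peroxide with values, 2 were higher and 2 lower, beside 47.6% and 52.4% of all genes. After trend removal 0 were higher and 3 lower, where 15.6% of all genes were higher and 53.7% lower. After centring 1 was higher and 0 lower, beside 32.0% and 31.1% of all genes. SOD1, the cytosolic superoxide dismutase, and CCS, which loads its copper, were at 0.33 and 0.62 and turned to -0.36 and -0.47. After centring, SOD1 was at -0.06 and CCS at -0.17, neither called. Catalase, CAT, was called lower in both fits (-0.64 and -0.47) but not after centring (-0.17, limma adjusted p = 0.0698). The mitochondrial SOD2 was at -0.70 and 0.12, the second not called, and was called higher after centring (0.42). Among all list genes with a RefSeq promoter (55 of 70), 10 held the antioxidant response element core before at least 1 start. At the authors' scaling 7 of these were higher and 3 lower, beside 29 higher and 16 lower of those without it. The shares of 10.91% and 11.79% given for promoters count each start separately, so they are not like this count of genes. Directions with the trend removed were not counted for this comparison.

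**Figure D4:**
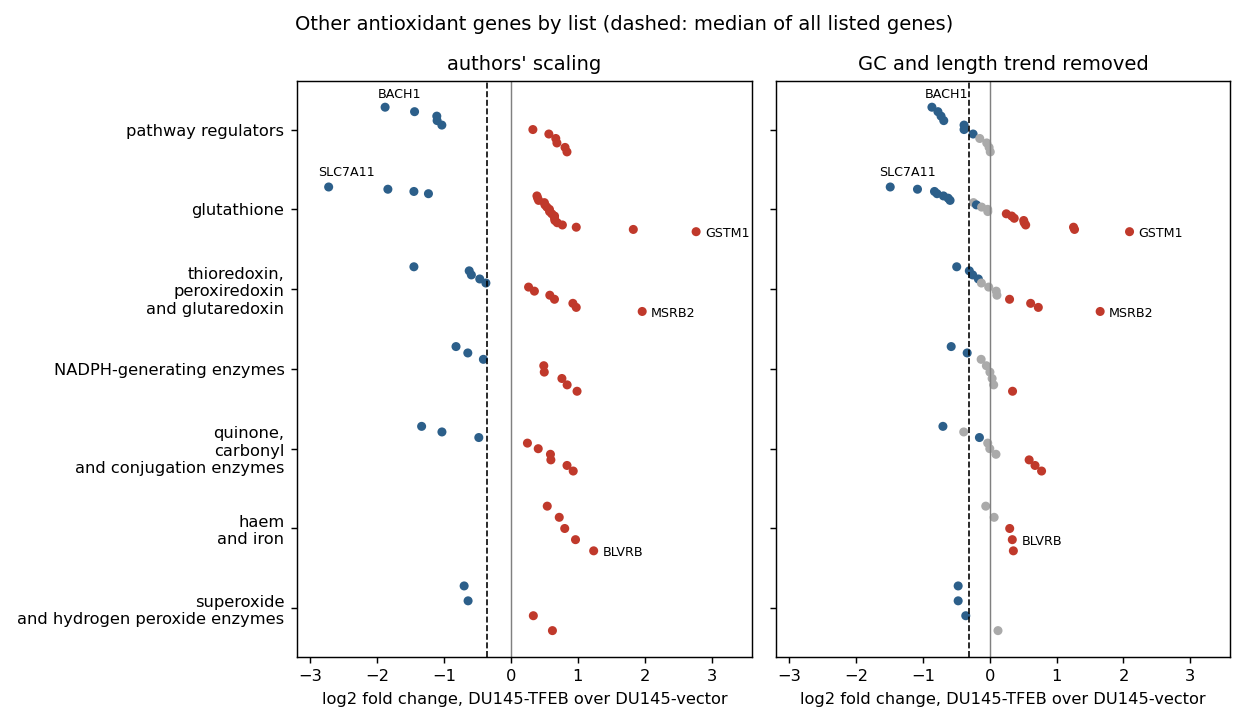
Log2 fold change of DU145-TFEB over DU145-vector (horizontal axis) of the 70 other antioxidant genes with values, by list, at the authors' scaling (left) and with the GC and length trend removed (right); red points are higher and blue points lower at a limma adjusted p below 0.05, grey points are not called, and the dashed line is the median of all listed genes. SLC7A11 and BACH1 stay on the lower side and MSRB2, GSTM1 and BLVRB on the higher side in both panels.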

How the data were processed

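The authors sequenced mRNA libraries (NEBNext Ultra kit, Novogene) and compared groups with DESeq2, and the submitters' processing notes name CASAVA 1.8, HISAT2 2.1.0, edgeR and GRCh38. The counting program, annotation and strand setting are not given in the sources used here. The deposited values are a normalized signal, the counts of each gene divided by 1 size factor per library. Whole reads were recovered for 100% of values in every library (tolerance 0.01 reads). The table also holds the authors' group means, log2 fold changes and p-values, which were not used except to check that all 10542 genes have a deposited adjusted p-value below 0.05. The read totals are thus those of listed genes only, with size factors from 0.950 to 1.099.

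Log2(normalized count + 1) was tested with limma 3.58.1 (mean-variance trend) in R 4.3.3, with no block and with Benjamini-Hochberg adjustment over the 10542 genes. Calls had an adjusted p below 0.05, and the fold-change cutoff was 1.5 (log2). Since genes were selected on the same libraries, these p-values are not independent evidence. The trend against length and against the GC content of the longest GENCODE transcript (10537 genes) was removed per library by loess with a span of 0.5. edgeR 4.0.16 and DESeq2 1.42.0 were run on the recovered reads, with 5015 genes higher and 5442 lower by edgeR and 5015 and 4633 by DESeq2. The scripts were tested on simulated data.

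The NRF2 pathway genes, the lists and the tests were chosen with earlier results of these data known. From each list, up to 3 higher and 3 lower genes are named, those with the largest change among called genes with groups that do not overlap and a mean of at least 10 normalized counts. Another gene that this rule names is not reported here. Within a group, libraries differed by more than sampling noise, and each counted as 1 replicate. With 3 libraries per group, precision is set by the spread between libraries.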

Additional observations from a re-analysis of the deposited data

How the results depend on the processing

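Pseudocounts of 0.5 and 8, library size and edgeR changed no call among the 43 genes examined (6 NRF2 pathway genes and 37 others). Leaving out the filter on the mean count gave the same fit, because all 10542 listed genes passed it, so that setting tested nothing. At least 10 reads in every library left GSTM1 untested and the other 42 unchanged. SESN1, IDH1 and CBR4 lost their call under 1 or more of the median-of-ratios, upper-quartile, quantile and DESeq2 settings, which shift the median of all genes from -0.36 to between -0.18 and -0.03. Outside trend removal, the log2 fold change of NFE2L2 ranged from -1.78 to -1.34, that of KEAP1 from 0.95 to 1.25 and that of TXNRD1 from -1.40 to -0.72. The number of NRF2 pathway genes past the fold-change cutoff, 1 at the authors' scaling, was 0 under median-of-ratios, upper-quartile and quantile scaling, DESeq2 and all trend removals. Leaving out each library in turn gave 0 to 1 past the cutoff (0 without DU145-TFEB replicate 2), with 2 higher and 4 lower each time. The same numbers, 2 higher, 4 lower and 1 past the cutoff, were found with a replicate block, which changed no call. Same-numbered libraries did not deviate together (correlations of -0.0178, -0.246 and -0.141), so the numbers were not taken as pairs.

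With the GC and length trend removed, alike with and without the replicate block, 0 NRF2 pathway genes were higher and 2 lower. After added centring 2 were higher and 2 lower. With the trend removed and without centring, the log2 fold change turned for HMOX1 (-0.16), GCLM (0.12), MAFK (-0.25), NFE2L1 (-0.00882), GPX4 (-0.12), GGT1 (-0.24), PRDX5 (-0.0149), PGLS (-0.0495), MTHFD2 (0.00369), IDH1 (0.0597), AKR1B1 (-0.0295), CBR4 (0.59), SLC48A1 (-0.0588), CCS (-0.47), SOD1 (-0.36) and SOD2 (0.12). Of these only MAFK, CBR4, CCS and SOD1 were called in the new direction. After centring, chosen after seeing the data, the log2 fold change turned for GCLC (0.16), GCLM (0.42), CUL3 (0.26), PRDX3 (0.046), SESN1 (0.18), ME1 (0.17), MTHFD2 (0.30), IDH1 (0.36), CBR4 (0.89), CCS (-0.17), SOD1 (-0.057) and SOD2 (0.42). The ratio of KEAP1 to NFE2L2 between groups moved from 6.45-fold to 2.70-fold with the trend removed. A further 11 of the 43 genes kept their direction but lost their call with the trend removed, and 6 after centring. The cause was not tested.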

Other observations

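TXNRD1 and GPX4 are selenoproteins, which carry selenocysteine. A list of selenoprotein genes that includes both was looked up after their values had been seen, so no test is given for it. Of its 25 genes 13 had values. At the authors' scaling 9 were higher, GPX4 among them, and 4 lower, TXNRD1 among them, in DU145-TFEB. Of all genes 47.6% were higher and 52.4% lower. With the GC and length trend removed 2 were higher and 8 lower, where 15.6% of all genes were higher and 53.7% lower. After centring, 5 were higher and 4 lower, where 32.0% of all genes were higher and 31.1% lower. SELENOI, which makes a membrane phospholipid, fell from 1757 ± 194 to 539 ± 97.8 normalized counts (log2 fold change -1.72, and -0.66 with the trend removed). SELENOP, the secreted carrier of selenium, was 58.9, 42.8 and 51.9 normalized counts in DU145-TFEB against 27.4, 32.2 and 26.0 in DU145-vector (0.82, and 1.91 with the trend removed). SELENON, a protein of the endoplasmic reticulum, was at 0.69, at -0.26 with the trend removed and at 0.04 after centring (limma adjusted p = 0.513).

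The replicates numbered 2 stood farthest apart both in NFE2L2 (378 and 1694 normalized counts) and in the GC trend. The difference between the median log2 deviations of the GC-richest and GC-poorest of the 5 groups of genes, each gene set against its mean over the 6 libraries, was 0.97, 1.31 and 0.69 with TFEB overexpressed. With the vector alone it was -0.90, -1.26 and -0.86. The part of this trend in the level of NFE2L2 in these libraries was not tested beyond the removal above.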
